A study of Sus scrofa with 15 samples.

Results

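CTSK, PDGFRA and ANPEP are 3 of the 25322 genes in the expression table of this study, and they were chosen by name. The table lists them as ENSSSCG00000006647, ENSSSCG00000008841 and ENSSSCG00000001849. CTSK encodes cathepsin K, PDGFRA encodes the alpha receptor for platelet-derived growth factor (PDGF), and ANPEP encodes the surface aminopeptidase N, also called CD13. The choice was made with their values in the sorted chondrocytes known. Their levels among chondrocytes that differ in BMPR1B are therefore given as a description, without a test. For ANPEP the comparison behind its choice is not recorded, and no test is given for it at all.

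The study sorted cells from the knees of adult pigs and sequenced their total RNA, to ask which transcripts distinguish chondrocytes with and without 2 surface proteins, the integrin subunit ITGA4 and the BMP receptor BMPR1B. Chondrocytes of articular cartilage were sorted into double positive (DP, both proteins), A4 (ITGA4+ and BMPR1B-), B1B (BMPR1B+ and ITGA4-) and double negative (DN, neither) populations, each with 1 library from pigs 2, 5 and 6. CD146+ cells of the synovium, labelled MSC and sorted as pericytes, had 1 library each from pigs 3, 4 and 5. The pigs came from a farm supplier and the tissues were digested with dispase and collagenase before sorting; no treatment or genetic change is given for any group.

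Cathepsin K is a lysosomal and secreted cysteine protease that cleaves fibrillar collagen, including the type II collagen of cartilage, and is best known from osteoclasts, the cells that resorb bone. PDGF receptor alpha is a receptor tyrosine kinase that marks fibroblasts and other mesenchymal cells in many tissues and drives their growth and migration when a PDGF ligand binds. Aminopeptidase N removes amino acids from the ends of peptides outside the cell and is carried by fibroblasts and by cells of the myeloid lineage.

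The unit of the deposited values is a signal with a common total in every library, of which structural RNA held 43.9% to 96.2%, mitochondrially encoded RNA 1.80% to 35.1% and messenger RNA 2.03% to 22.1%. The messenger share was 2.03% to 4.17% in the pig 2 chondrocyte libraries and 2.95% to 3.79% in the CD146+ libraries. In the chondrocyte libraries of pigs 5 and 6 it was 11.8% to 22.1%, so it differed with pig and with tissue. Values are therefore given on a messenger scale, on which structural and mitochondrial RNA were left out, libraries were brought to the same median ratio, and the mean total is 1000000. Whether the signal is per transcript length is not given, so levels are compared between libraries and not between genes. Depth in reads is unknown, although the spacing of the smallest values placed the relative depth of messenger RNA in the chondrocyte libraries within a 2.97-fold span. For the pig 3 CD146+ library this spacing was ambiguous. The 9 chondrocyte markers summed to 16769 or more in each cartilage library and to at most 53.2 in the CD146+ libraries. The CD146+ libraries carried MCAM, which encodes CD146 (265 to 729.7), and also endothelial RNA, with a summed level of 10 markers of 2979 to 5060 against at most 123 in chondrocytes. The messenger RNAs of ITGA4 and BMPR1B averaged at most 1.03 and 0.0758, too low to check the chondrocyte sort.

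The pig 2 A4 library stood apart in myeloid RNA. There 10 of 11 macrophage markers were above the lowest value and summed to 621, against 170 and 223 in the pig 5 and pig 6 libraries of that population and 96.1 to 277 in the other chondrocyte libraries. Outside the pig 2 library most of that sum was CD14, which every chondrocyte library carried (86.9 to 273). The other 10 macrophage markers summed to 387 in pig 2, 57.6 in pig 5 and 5.33 in pig 6 in A4 cells, and to at most 9.19 in the other 9 chondrocyte libraries, so the pig 5 A4 library also carried more of them. The osteoclast list of the pig 2 library summed to 519 (70.2 and 50.9 in pigs 5 and 6, and 21.2 to 53.3 elsewhere in cartilage) and its neutrophil list to 216 (at most 13.9 in the other 11). MMP9 stood at 355, the osteoclast phosphatase ACP5 at 121 and the complement subunit C1QC at 99.7 in this library, while the calcitonin receptor CALCR, which defines osteoclasts, was at the lowest value in all 15 libraries. In the pig 5 library of the same population ACP5 stood at 17.6 and C1QC at 12.2. As CTSK and ANPEP are also carried by myeloid cells, some values are given with and without the pig 2 library. These are the differences of CTSK and PDGFRA along BMPR1B and ITGA4, and those of A4 against CD146+ cells. For related genes they are the single calls, with list counts for cathepsins and other surface peptidases only. ANPEP is given pig by pig. In bulk samples, fewer cells of a type and less RNA per cell cannot be told apart.

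CTSK was highest in A4 chondrocytes and lowest in B1B chondrocytes. In A4 cells its messenger-scaled values were 310 in pig 2, 465 in pig 5 and 326 in pig 6. In DN cells they were 189, 286 and 228. Each BMPR1B- value was above every BMPR1B+ value, and the pig 5 library was the highest in both populations. The BMPR1B+ populations had values of 134, 162 and 155 in DP cells. In B1B cells they were 129, 139 and 115. These 6 libraries lay within 115 to 162, whereas the 6 BMPR1B- libraries spread from 189 to 465. The means were 367 ± 85.4, 234 ± 49.1, 150.2 ± 14.6 and 128 ± 12.05 (SD, n = 3) in A4, DN, DP and B1B cells, an order that held in 3 of 3 pigs. The neighbours DP and B1B overlapped.

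PDGFRA had the same order of means, 133 ± 77.4, 86.0 ± 45.7, 50.6 ± 18.1 and 41.2 ± 8.47 (SD, n = 3) from A4 through DN and DP to B1B cells. In A4 cells its messenger-scaled values were 45.1 in pig 2, 164 in pig 5 and 190.5 in pig 6. In DN cells they were 43.5, 80.3 and 134. The pig 2 libraries were low in both, so that the BMPR1B- and BMPR1B+ libraries overlapped. In DP cells the values were 37.7, 42.9 and 71.3. In B1B cells they were 32.4, 42.0 and 49.2. Within each pig, however, the order of the 4 populations was the same as for CTSK in 3 of 3 pigs, and neighbours in that order overlapped across pigs.

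ANPEP was low in chondrocytes, and largely found in A4 cells. There its messenger-scaled values were 7.19 in pig 2, 31.6 in pig 5 and 11.0 in pig 6, above all 9 other chondrocyte libraries. In DN cells they were 2.77, 3.09 and 2.91. In DP cells they were 4.00, 1.07 and 1.49, overlapping with the DN cells, and the order of these 2 populations differed between pigs. In B1B cells ANPEP was at the lowest value of the table in pigs 2 and 5 and at 0.362 in pig 6, below every other library. From the steps in low values, the A4 libraries held 21.3, 119 and 43.2 times as many ANPEP reads as the pig 6 B1B library, whose value may rest on very few. ANPEP passed the filter on low values, more than 5 in at least 3 libraries, only through the population in which it was high.

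**Figure D1:**
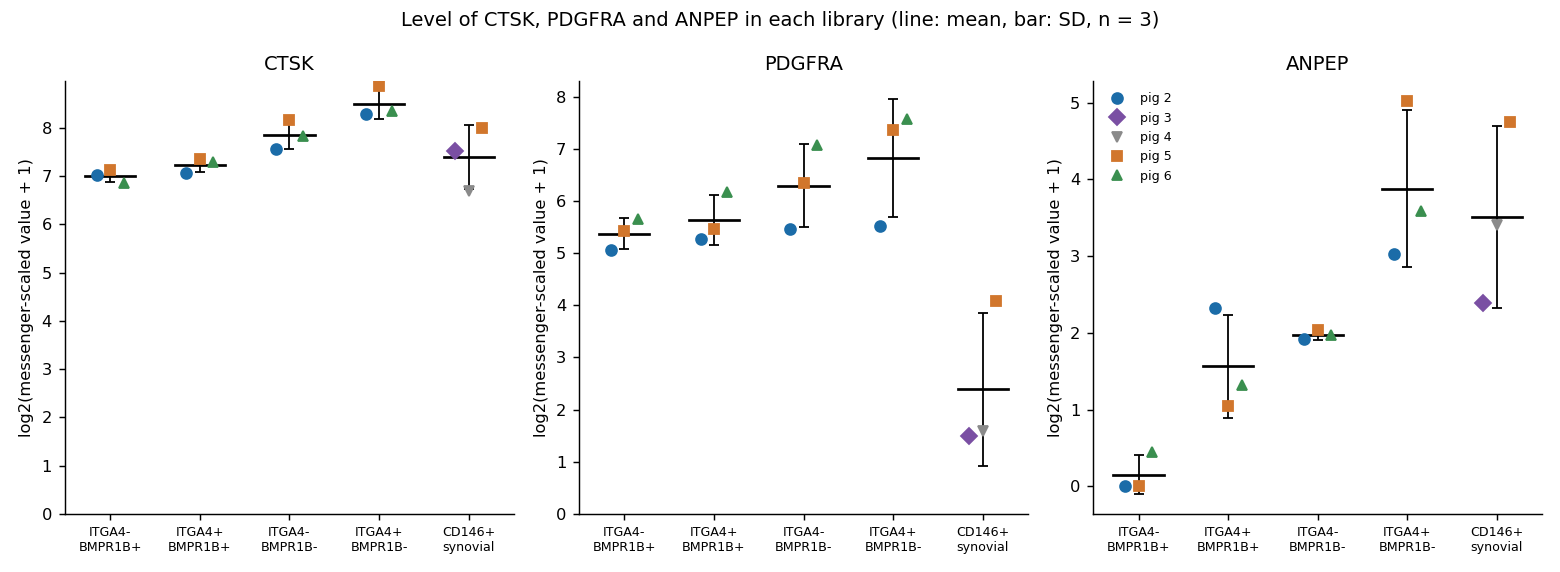
Level of CTSK, PDGFRA and ANPEP in each of the 15 libraries, as log2(messenger-scaled value + 1), by sorted population (points: libraries, shape and colour: pig, line and bar: mean and SD, n = 3). Within chondrocytes each gene is highest in A4 and lowest in B1B cells, and PDGFRA is lowest of all in the CD146+ cells, at 1.80, 2.00 and 16.0.

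Myeloid markers varied among the 3 A4 libraries beside these values. In the pig 2 library, where the macrophage markers other than CD14 summed to 387, CTSK was at 310, PDGFRA at 45.1 and ANPEP at 7.19, each the lowest of the population. In the pig 5 library, with a sum of 57.6 against 8.68 in the DN cells of that pig, CTSK and ANPEP were at their highest. In the pig 6 library, with a sum of 5.33, CTSK stood at 326, PDGFRA at 190.5 and ANPEP at 11.0. CTSS, the cathepsin of antigen-presenting cells whose gene lies next to CTSK in the pig RefSeq annotation (Sscrofa11.1), was at 54.7, 8.13 and 2.83 in the A4 libraries of pigs 2, 5 and 6 and at 0.546 to 3.03 in the other 9 chondrocyte libraries. The part of myeloid RNA in the levels of the 3 genes was not tested.

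Along BMPR1B, the mean of the BMPR1B+ minus that of the BMPR1B- populations on the log2 scale was -1.06 ± 0.204 (SD over 3 pigs) for CTSK. The within-pig values were -0.87 in pig 2, -1.28 in pig 5 and -1.02 in pig 6. For PDGFRA the mean was -1.05 ± 0.625, with -0.33 in pig 2 against -1.41 and -1.42 in pigs 5 and 6. CTSK and PDGFRA thus had the same mean difference, and pig 2 departed from the others for PDGFRA only. ANPEP had -2.07 ± 0.860, with -1.31, -3.00 and -1.90 in pigs 2, 5 and 6. Its size follows the constant of 1 added before the logarithm, and was -3.47 with 0.1 and -1.04 with 5. Of the 9241 genes tested by limma along BMPR1B, 28 passed an adjusted p of 0.05 (0.303%), and 271 (2.93%) with the pig as a term. The values along BMPR1B were known when the members were chosen, so nothing is read from these shares. Without the pig 2 A4 library the difference was -1.11 for CTSK and -1.38 for PDGFRA, and ANPEP then failed the filter on low values and was not fitted.

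Along ITGA4, CTSK was higher in the ITGA4+ cells in 3 of 3 pigs, by 0.38, 0.46 and 0.47 on the log2 scale in pigs 2, 5 and 6. The mean difference was 0.44 (SE 0.15), which did not pass the threshold over all genes tested (limma adjusted p = 0.841), and its adjusted p was 0.189 with the pig as a term (SE 0.0993). PDGFRA differed by 0.13, 0.53 and 0.51, a mean of 0.39 (SE 0.39, limma adjusted p = 0.936, and 0.504 with the pig as a term). ANPEP differed by 1.71, 2.02 and 1.24, a mean of 1.66 ± 0.392 (SD over 3 pigs). Limma called 0 of 9241 genes (0%) along ITGA4 either way, with 512 at an unadjusted p under 0.05 and 1116 with the pig as a term. Without the pig 2 A4 library the ITGA4 difference was 0.49 for CTSK and 0.72 for PDGFRA (limma adjusted p = 0.515 and 0.564). The genes were chosen with these chondrocyte values known, so the p values of CTSK and PDGFRA are not independent of that choice.

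The difference with ITGA4 was larger in BMPR1B- than in BMPR1B+ cells for CTSK, at 0.64 ± 0.110 against 0.23 ± 0.190 (log2, SD over 3 pigs). For PDGFRA these were 0.52 ± 0.486 and 0.26 ± 0.250. The interaction, which tests whether the difference with 1 surface protein depends on the other, was -0.41 (SE 0.31) for CTSK and -0.27 (SE 0.78) for PDGFRA, and neither passed the threshold (limma adjusted p = 0.99997 for each). The p values of CTSK and PDGFRA for the interaction are likewise not independent of the choice of genes. Limma called 0 of 9241 genes for the interaction, with 154 at an unadjusted p under 0.05. Between the extremes, CTSK was 2.39-fold, 3.34-fold and 2.82-fold higher in A4 than in B1B cells of pigs 2, 5 and 6. PDGFRA was 1.39-fold, 3.90-fold and 3.87-fold higher, again with the smallest ratio in pig 2.

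Against the CD146+ synovial cells PDGFRA was higher in chondrocytes, CTSK did not pass the test over all chondrocytes, and PDGFRA and ANPEP were not tested. PDGFRA was at 1.80 in pig 3, 2.00 in pig 4 and 16.0 in pig 5 in CD146+ cells, below all 12 chondrocyte libraries (32.4 to 190.5). It was higher in chondrocytes by 3.65 on the log2 scale (SE 0.55), in a comparison in which 4403 of 9957 genes passed (44.2%). PDGFRA was above 5 in all 12 chondrocyte libraries and in 1 CD146+ library. It passed the filter on low values largely through the side on which it was high, so no test is given for it. The size moved to 2.06 with the pig as a term (where 34.1% of all genes passed). In that fit only pig 5, the CD146+ library with the most PDGFRA, links the tissues. Tissue, sort and most pigs differ between these groups and cannot be told apart.

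CTSK did not follow PDGFRA in this comparison. Its values in CD146+ cells were 182 in pig 3, 102 in pig 4 and 255 in pig 5, a mean of 180 ± 76.4 (SD, n = 3) that lay between the DN and DP chondrocytes. Both of these populations overlapped with it. Over all chondrocytes CTSK differed by 0.25 (SE 0.23, limma adjusted p = 0.413), and by -0.12 with the pig as a term. ANPEP stood at 4.23, 9.57 and 26.0 in CD146+ cells of pigs 3, 4 and 5, a mean of 13.3 ± 11.3 (SD, n = 3). These values overlapped with A4 cells alone and exceeded all 9 other chondrocyte libraries.

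By population these values are a description, since the differences among chondrocytes were known when the genes were chosen. PDGFRA was above the CD146+ cells by 2.99 on the log2 scale in B1B, 3.25 in DP, 3.91 in DN and 4.44 in A4 cells (SE 0.70 each). With the pig as a term these differences were 1.404, 1.66, 2.32 and 2.85. CTSK differed by -0.40 in B1B, -0.17 in DP, 0.45 in DN and 1.10 in A4 cells (SE 0.29 each), and by -0.77, -0.54, 0.08 and 0.73 with the pig as a term. Its A4 values did not overlap with those of CD146+ cells, and those of the other 3 populations did. With messenger RNA scaled by its total CTSK differed by -0.97 in B1B and 0.69 in A4 cells, and as deposited by 0.41 and 2.24, so that the sign in B1B cells depends on the scale. Without the pig 2 A4 library the A4 difference was 1.21 for CTSK, 5.09 for PDGFRA and 0.79 for ANPEP, against 0.37 for ANPEP with it. All 4 comparisons share the same CD146+ libraries.

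**Figure D2:**
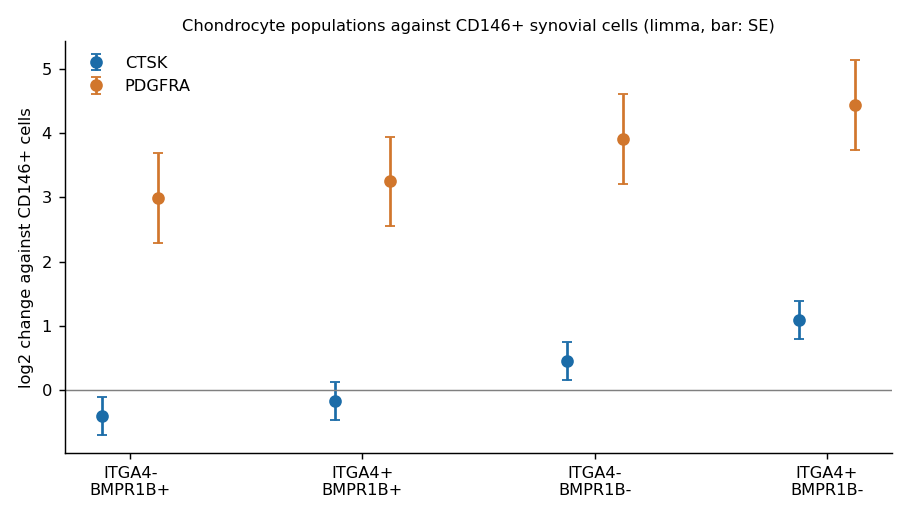
Log2 change of CTSK and PDGFRA in each chondrocyte population against the CD146+ synovial cells, with the SE of the limma fit over 15 libraries. PDGFRA lies between 2.99 and 4.44 in the 4 populations, and CTSK runs from -0.40 in B1B to 1.10 in A4 cells.

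Ratios of 2 genes within a library do not depend on how libraries are scaled. The log2 ratio of CTSK to PDGFRA signal was 1.65 ± 0.392 in B1B, 1.62 ± 0.433 in DP, 1.57 ± 0.715 in DN and 1.69 ± 1.02 in A4 cells (SD, n = 3). These means lay within the spread of each population. The ratio was 5.44 ± 1.35 in CD146+ cells, where each library (3.99 to 6.66) was above the highest chondrocyte library (2.78, pig 2 A4). The log2 ratio of PDGFRA to ANPEP was -1.40 ± 0.793 in CD146+ cells and 2.37 or more in all 10 chondrocyte libraries with both genes above the lowest value. The log2 ratio of CTSK to COL2A1, the type II collagen chain that cathepsin K can cleave, was -4.93 ± 0.559 in A4, -6.39 ± 0.225 in DN, -7.54 ± 0.631 in DP and -8.47 ± 0.937 in B1B cells.

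**Figure D3:**
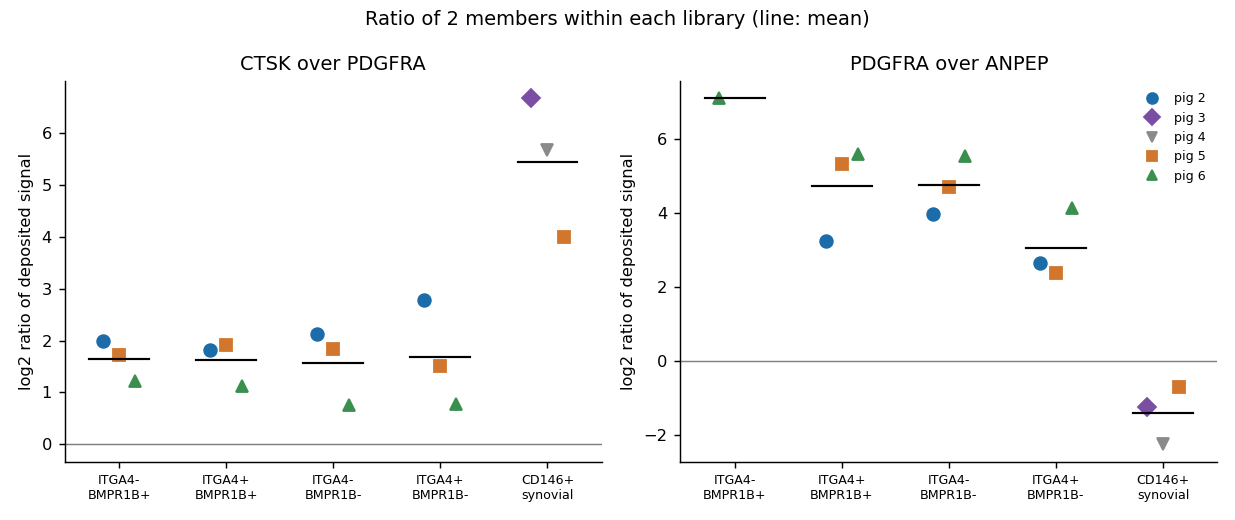
Log2 ratio of the deposited signal of CTSK to PDGFRA (left) and of PDGFRA to ANPEP (right) within each library, by population (points: libraries, line: mean). The CTSK to PDGFRA means of the 4 chondrocyte populations lie between 1.57 and 1.69 against 5.44 in CD146+ cells, and 2 libraries with ANPEP at the lowest value are left out on the right.

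Cathepsin K is 1 of a family of lysosomal proteases, and the other cathepsins leaned the same way. The lists of related genes were chosen with earlier results of these data known. Their counts are set beside the shares of all genes as a description only. Of 9 other cathepsins and related lysosomal proteases tested along BMPR1B, 9 were below 0, with a median of -0.78 against 0.00 over all genes tested. Only CTSA, the protective protein of lysosomal galactosidase, fell past the threshold (-0.97, SE 0.15, limma adjusted p = 0.0198 with the pig as a term), against 1.57% of all genes lower in that fit and 0.119% without the pig term, where 0 of the 9 passed. Its values were 100.1, 69.0 and 103 in A4 and 37.2, 37.1 and 49.9 in B1B cells of pigs 2, 5 and 6. These did not overlap, but CTSA was named by its small p and the share of all genes without such overlap was not counted. LGMN, the asparaginyl endopeptidase legumain, had -0.9997 and CTSB, a broadly expressed cysteine cathepsin, -0.78 (limma adjusted p = 0.0770 and 0.0605 with the pig as a term). CTSL was at 130 in the pig 2 A4 library and at 4.64 to 22.2 in the other 11. Along ITGA4, 9 of 9 were above 0 with a median of 0.31, and 0 passed with or without the pig term. Without the pig 2 A4 library 9 of 9 were still below 0 along BMPR1B with the pig as a term, with a median of -0.52, and 4 were called lower against 2.17% of all genes. Without the pig term 8 of 9 were below 0 and 0 were called. The part of myeloid RNA in these values was not tested.

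The 2 inhibitors of cysteine cathepsins that were tested were also lower on average in BMPR1B+ cells, and both overlapped between the sides. CST3 was at 388 in pig 6 DP and 275 in pig 5 DN cells, and CSTB at 254 in DP and 231 in DN cells of pig 2. CST3 encodes the secreted inhibitor cystatin C, and stood at 852, 518 and 554 in A4 cells of pigs 2, 5 and 6. In B1B cells it stood at 267, 142 and 251. It fell along BMPR1B by 0.96 (SE 0.13, limma adjusted p = 0.0177 with the pig as a term). CSTB, the intracellular cystatin B, fell by 0.99 (limma adjusted p = 0.0394 with the pig as a term). These were the 2 inhibitors tested of 8 listed, against 1.57% of all genes lower in that fit, and 0 passed without the pig term (0.119% of all genes lower). This list too was chosen with earlier results known, so its count is a description.

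Of 7 genes for matrix proteins that cathepsin K can cleave, or that accompany them, 4 rose along BMPR1B with the pig as a term, against 1.36% of all genes. This list and that of collagen turnover below were chosen with earlier results of these data known, so both counts are a description. SPARC, a collagen-binding glycoprotein, rose by 1.23 (SE 0.15, limma adjusted p = 0.0166), COL11A1 by 1.14 (0.0198), COL2A1 by 1.28 (0.0321) and COL9A1 by 1.14 (0.0404). SPARC was at 1279, 1450.2 and 2006 in A4 and at 3436, 6815 and 7812 in B1B cells of pigs 2, 5 and 6. Those 2 populations did not overlap, for a gene named by its small p. The share of all genes without such overlap was not counted. COL1A2, the type I chain of bone and fibrous tissue, had -1.79 (limma adjusted p = 0.109). Without the pig term COL11A1 alone passed (limma adjusted p = 0.04998, and 0.0568 with a constant of 0.1, against 0.184% of all genes higher). Of 10 tested genes of collagen uptake and turnover, 3 fell with the pig as a term, against 1.57% of all genes, and 0 without it, namely PLAU, the urokinase that activates plasmin (-1.42), the gelatinase MMP2 (-0.75) and its inhibitor TIMP2 (-0.72, limma adjusted p = 0.0260, 0.0292 and 0.0225). For the 14 related genes called with the pig as a term, leaving out single libraries ended most calls. SPARC passed in 12 of 12 such fits, CST3 in 8, COL11A1 and ENG in 6, CTSA and TIMP2 in 4, COL9A1 in 3, COL2A1, PLAU, MMP2 and POSTN in 2, and CSTB and TNXB in 1, while VCAM1 was fitted in 9 and passed in 2. Without the pig 2 A4 library 11 of the 13 that could be fitted passed, and CSTB and TNXB did not (limma adjusted p = 0.0585 and 0.0606 with the pig as a term).

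**Figure D4:**
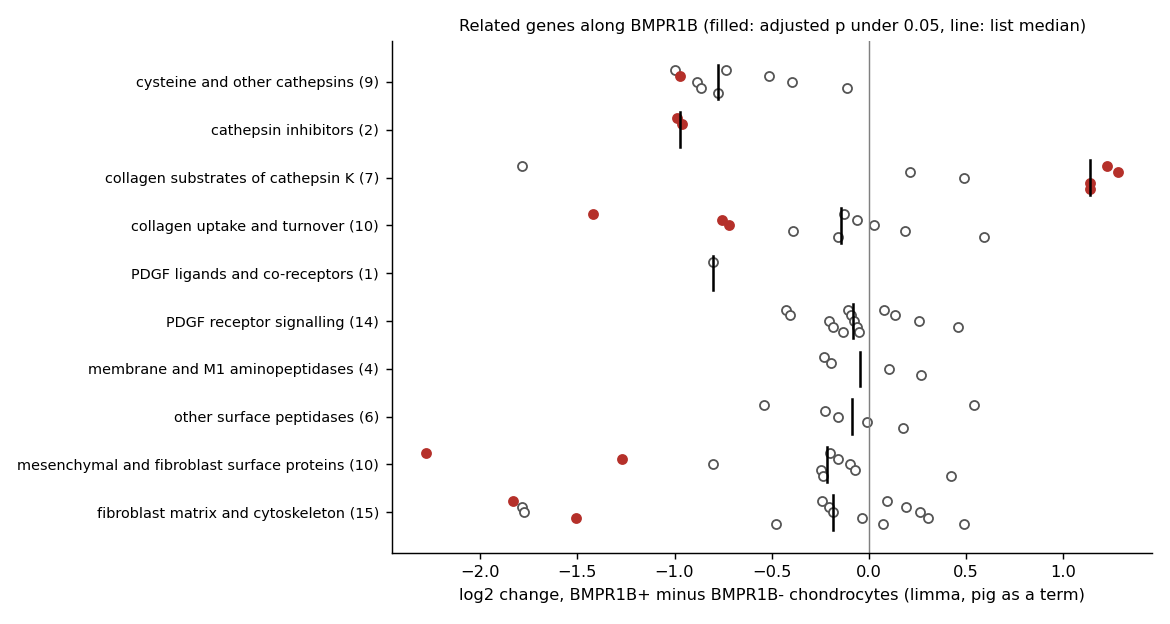
Log2 change along BMPR1B of the tested genes in 10 lists related to the 3 members, from limma with the pig as a term (points: genes, filled: adjusted p under 0.05, line: list median). The cathepsins lie to the left of 0 in 9 of 9 genes, while the PDGF receptor signalling list has a median of -0.08. In the list labelled collagen substrates 4 of 7 genes rose, of which SPARC is not a collagen.

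Other genes of the PDGF pathway were examined beside PDGFRA among chondrocytes. PDGFRB, the beta receptor that binds PDGF-B, was the 1 ligand or co-receptor of 9 that passed the filter on low values, and had -0.80 along BMPR1B (SE 0.23, limma adjusted p = 0.109 with the pig as a term). The ligand PDGFC averaged 3.38 to 4.27 and PDGFA 0.455 to 2.12 in the chondrocyte populations. Of 14 adaptors and enzymes that act below the receptor, 0 passed along either axis, and their medians were -0.08 along BMPR1B and 0.01 along ITGA4. Of all genes 2.93% passed along BMPR1B with the pig as a term, 0.303% without it, and 0% along ITGA4. A count of 0 among 14 is near these shares, so nothing is read from it. In CD146+ cells the ligand PDGFB was at 111, 291 and 109 in pigs 3, 4 and 5, against at most 10.1 in chondrocytes. KIT, a receptor of the same family whose gene neighbours PDGFRA, was at 114, 129 and 62.5 in these libraries and at most 0.936 in chondrocytes. Both passed the filter on low values through the CD146+ libraries in which they were high and so had to differ, and no test is given for them. The endothelial markers of the CD146+ libraries were high beside these values, although the study's gate for these cells was CD45- and CD31-, and PECAM1, which encodes CD31, stood at 343 to 621. Their part in these values was not tested. Of the signalling genes 2 rose in chondrocytes, led by PIK3R2 (1.58), and 7 fell, led by PLCG1 (-2.43) and GAB1 (-1.94), against 22.4% of all genes higher and 21.8% lower. With the pig as a term 2 rose and 4 fell, against 18.9% and 15.1%. As deposited, PIK3R2, PLCG1 and GAB1 did not pass (limma adjusted p = 0.133, 0.319 and 0.562).

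The fibroblast label was examined with other surface proteins and matrix genes. Among chondrocytes 2 of 10 mesenchymal surface genes were called lower along BMPR1B with the pig as a term, against 1.57% of all genes, and 1 without it, against 0.119%. ENG, a TGF-beta co-receptor, fell by 1.27 (limma adjusted p = 0.0255 with the pig as a term). The other was VCAM1, an adhesion receptor for ITGA4 integrins (-2.28). VCAM1 was at 20.9, 30.2 and 11.3 in A4 cells of pigs 2, 5 and 6 and at most 4.62 in the other 9 chondrocyte libraries. It passed the filter on low values only through the A4 libraries, as ANPEP did, and so had to differ. VCAM1 was also the 1 gene called without the pig term. The counts that hold it are therefore not read against the shares of all genes. Of 15 fibroblast matrix and cytoskeletal genes, POSTN (-1.83) and TNXB (-1.51), which encode the matrix proteins periostin and tenascin X, fell with the pig as a term (limma adjusted p = 0.0483 and 0.0404), and 0 without it. POSTN was above 5 in 3 A4, 2 DN, 1 DP and 0 B1B libraries, and TNXB in 2, 1, 1 and 0. Both passed the filter on low values largely through the side on which they were high. Their calls are therefore not read against the 1.57% of all genes lower. The median of the 15 genes was -0.19. None of 4 M1 aminopeptidases and none of 6 other surface peptidases passed along BMPR1B, with medians of -0.05 and -0.09. Of all genes 2.93% passed with the pig as a term and 0.303% without it, so these counts are near the share and nothing is read from them. Without the pig 2 A4 library 1 of the 6 other surface peptidases was called lower with the pig as a term, and 0 without it. In that blocked fit 2.17% of all genes were lower, and nothing is read from this 1 call.

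Against CD146+ cells, genes of the fibroblast surface were called in both directions. Of 12 mesenchymal surface genes 6 rose and 4 fell, against 22.4% of all genes higher and 21.8% lower, and with the pig as a term 5 rose and 4 fell, against 18.9% and 15.1%. The collagen receptor DDR2 rose by 3.54 (limma adjusted p = 3.97e-06). The fibroblast peptidase FAP differed by 3.32, NT5E, which encodes CD73, by 4.35 and CD34, a marker of endothelial and stem cells, by -6.22. FAP, NT5E and CD34 each passed the filter on low values largely through the side on which it was high. The counts of mesenchymal surface genes hold all of these, so nothing is read from the counts against the shares of all genes. Of 15 fibroblast matrix genes 8 rose, led by the type VI collagen chain COL6A3 (6.49, limma adjusted p = 2.18e-07), and 0 fell, whereas with the pig as a term 7 rose and 2 fell. Among M1 aminopeptidases TRHDE, which degrades thyrotropin-releasing hormone, differed by 6.04 and NPEPPS by 1.12, in a comparison in which ANPEP differed by -1.62. TRHDE also passed the filter on low values largely through the chondrocyte libraries, in which it was high. Of 10 cathepsins 5 fell and 1 rose, against the same shares of all genes, and with the pig as a term 4 fell and 0 rose. CTSB was at 1317, 679.9 and 975 in CD146+ cells of pigs 3, 4 and 5 and at most 260.2 in chondrocytes, and fell by 3.22 (limma adjusted p = 3.41e-07). CTSV, a cathepsin close to CTSL, rose by 0.83 (limma adjusted p = 0.00193, and 0.0791 with the pig as a term).

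The genes whose levels were most like those of each member were found by Pearson's r over the 12 chondrocyte libraries, among 7032 other named genes. The libraries share pigs and differ in depth, so these values are a description. For CTSK they were VPS11 (r = 0.926), a subunit of the complex that fuses endosomes with lysosomes, ABHD17C, TIFA, the lysosomal thiol reductase IFI30 (0.905) and ACSL4. FKBP9, CLIC4 and USP53 were the most opposite (-0.927 for FKBP9). IFI30 stood at 98.0, 146 and 102 in A4 cells of pigs 2, 5 and 6 and at 29.5 to 44.0 in B1B cells. For PDGFRA they were TBC1D20 (0.977), the lysosomal membrane protein LAMP2 (0.971), MAP2, PAM and SNX9, and the most opposite were ACLY (-0.968), ATP10A and the joint growth factor GDF5 (-0.966). For ANPEP they were VCAM1 (0.937), HADH, AFG3L2, the BMP receptor BMPR2 (0.915) and WNT1, and the most opposite were RCN2, MALL and SPARC (-0.890).

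Among themselves, CTSK and ANPEP had r = 0.887, and ANPEP ranked 9 among the genes most like CTSK. PDGFRA ranked 120 for CTSK (r = 0.747) and 179 for ANPEP (r = 0.696). PRG4, the lubricin of the cartilage surface, had r = 0.665 with CTSK, 0.714 with ANPEP and 0.400 with PDGFRA, and COL2A1 had -0.709, -0.828 and -0.396. PRG4 averaged 3982 ± 1105 in A4, 2793 ± 1422 in DN, 745 ± 524 in DP and 430.2 ± 655 in B1B cells (SD, n = 3), the same order of populations as CTSK and PDGFRA.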

How the data were processed

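The authors deposited 1 table of a signal for 25322 Ensembl pig genes in 15 libraries, with 0.0001 as the lowest value and a common total of 629194 to 629195. Per the study's methods, the NuGen Ovation SoLo kit was used for library construction, and reads were aligned with STAR to an Ensembl pig reference and quantified by expectation maximisation in Partek. How the signal was normalized, and with which software versions, is not given in the sources used here. Beyond the order of neighbouring genes in the reference annotation, positions and sequences were not used here.

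For the messenger scale 1126 structural and 37 mitochondrial genes were left out and libraries divided by their median ratio over 11303 genes. Limma 3.58.1 (R 4.3.3, trended prior) was fitted to log2(value + 1) for genes above 5 in at least 3 libraries, over 12 chondrocyte libraries for the axes and 15 for comparisons with CD146+ cells. Adjusted p values follow Benjamini and Hochberg over the whole table of tested genes, and the threshold was 0.05. The script was tested on simulated data.

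The members and lists were chosen with earlier results of these data known. Named genes were the 3 members, the 5 most and 3 least correlated with each, up to 4 members of each of 10 pathway lists with the smallest p, marker genes, PRG4 and COL2A1. The CTSL, CTSS, CTSA, PDGFA, PDGFC and IFI30 values by library or group were singled out after they were seen. Pig 2, 5 and 6 each gave 1 library of every chondrocyte population, so the pig pairs them. With population means removed, 12 of 12 libraries correlated best with one of their own pig (0.142 to 0.438 within a pig, median -0.228 between pigs). Replicates of a group are different pigs. Alternatives were the deposited values, total scaling, other constants, a filter of only more than 0.5 in 1 library, a constant prior, the pig as a term, all 15 libraries, leaving out each library and, chosen after seeing the data, leaving out pig 2, leaving out libraries with the pig as a term, the lists without the pig 2 A4 library and the macrophage sum without CD14. The table names 13675 genes, and 2384 more were named from a reference list.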

Additional observations from a re-analysis of the deposited data

How the results depend on the processing

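The count of genes called along BMPR1B (28) depended on the fit. It was 0 as deposited (genes above 1 in at least 3 libraries), with or without the pig as a term (replicate block), 0 with messenger RNA scaled by its total, 1 with a constant of 0.1 or of 5, with a filter of only more than 0.5 in 1 library or with a constant prior, 17 with all 15 libraries, 271 with the replicate block, 0 without pig 2 and 55 without pig 2 with the block. Leaving out single libraries gave 0 to 385 over both kinds of fit, the lowest with the block being 7 without the pig 6 DN library and the highest 385 without the pig 2 A4 library. Along ITGA4 the count (0) was 7 as deposited, 3490 as deposited with the replicate block, 1 with a constant of 5, that filter, a constant prior or all 15 libraries, and 0 to 2 with single libraries left out. For the interaction (0) it was 1 as deposited, with a constant of 5, that filter, a constant prior, all 15 libraries or without pig 2 (with or without the block), and 0 to 2 with single libraries left out. Against CD146+ cells the count (4403) was 477 as deposited and 3215 to 4474 with single libraries left out.

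Along ITGA4, deposited values with the replicate block gave 0.95 for CTSK and 0.77 for PDGFRA (limma adjusted p = 0.0115 and 0.0330). In that fit 3490 of 6873 genes were called, and 3474 of them were higher in ITGA4+ cells. The chondrocyte values were known when the genes were chosen, so nothing is read from the p values of CTSK and PDGFRA. The scale factors that lead to the messenger scale were 0.513 and 0.479 in DP and A4 cells of pig 2, against 0.314 and 0.251 in B1B and DN cells. In pig 5 they were 2.70 and 2.93 against 1.82 and 1.64, and in pig 6 2.35 and 2.27 against 1.85 and 1.69. The deposited values are not divided by these factors. The cause was not tested. ANPEP along ITGA4 was 2.85 with a constant of 0.1 and 0.87 with 5, and along BMPR1B -3.47 and -1.04. Its interaction turned to 1.34 with 0.1, and it was not fitted as deposited, where too few libraries pass the filter. The PDGFRA interaction ran from -0.92 to 0.14 with single libraries left out. CTSK over all chondrocytes against CD146+ cells turned to -0.19 with total scaling and -0.12 with the block, was 1.56 as deposited with the block, and ran from -0.11 to 0.55 with single libraries left out. In DP cells it turned to 1.07 as deposited and 1.46 with the block, with -0.52 to 0.13 for single libraries left out, and in B1B cells to 0.41 and 0.79. ANPEP in A4 cells turned to -0.74 with the block and ran from -0.20 to 0.99. PDGFRA against CD146+ cells was 2.03 in DP, 1.49 in B1B and 2.10 in DN cells as deposited. Against CD146+ cells LGMN turned to 0.063 and GAB1 to 0.11 as deposited with the block, and CSTB to 0.19 as deposited and 0.51 with the block. ANPEP was at the lowest value in 2 of 3 B1B libraries, where its level is not known.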
